A study of Mus musculus with 139 samples.

Results

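Pancreas libraries of a mouse small RNA atlas were compared with the libraries of 9 other organs. Of 131 libraries whose column could be matched to a sample, 11 were pancreas libraries of animals 1 to 9, 12 and 13, and 119 were libraries of brain, heart, muscle, lung, liver, kidney, intestine, spleen and bone marrow, with 12 to 14 libraries an organ. The pancreas library of animal 11 was left out because it carries intestinal miRNAs. All animals were wild-type, untreated C57BL/6J mice, an inbred laboratory strain, 3 months old. Animals 1 to 10 were female and animals 11 to 14 male, by the names of the columns. Pancreas, lung, liver, kidney and spleen of animals 1 to 10 were sequenced in library pool N467, their other organs in pool N469, and animals 11 to 14 in pool N541. For pancreas, sex, animal set and pool N541 therefore cannot be told apart. RNA from whole organs was measured, so fewer cells of a type and less RNA per cell cannot be told apart.

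The pancreas is mostly exocrine tissue, in which acinar cells make and secrete digestive enzymes, with islets of hormone-secreting endocrine cells set between them. A miRNA is a short RNA, cut from a hairpin precursor, that guides a silencing complex to messenger RNAs through its seed, the bases near its 5′ end. Small nucleolar RNAs (snoRNAs) guide the modification of other RNAs, and transfer RNAs (tRNAs) carry amino acids to the ribosome.

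The mature sequences of the miRNAs that carry the pancreas pattern are given 5′ to 3′ from RefSeq (GRCm38.p6), with the seed (bases 2 to 8) in capitals. Counts were made per gene and not per arm, so the arm shown is 1 of the products of each hairpin. The first set holds the acinar miRNAs, whose genes lie in a row on chromosome 11.
miR-216a-5p: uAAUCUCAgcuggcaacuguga
miR-216b-5p: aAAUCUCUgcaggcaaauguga
miR-217-5p: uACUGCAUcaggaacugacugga
The second set holds miRNAs known from islets. miR-7a-5p is made from both Mir7-1 and Mir7-2, so reads of these genes cannot be split, and miR-7b-5p has the same seed. Mir375 is shown as its hairpin, with no capitals.
miR-7a-5p: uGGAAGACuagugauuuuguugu
miR-7b-5p: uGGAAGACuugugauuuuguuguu
miR-184-3p: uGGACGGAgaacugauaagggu
Mir375 hairpin: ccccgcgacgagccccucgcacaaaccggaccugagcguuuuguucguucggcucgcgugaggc
The third set holds 3 miRNAs of 1 seed, the miR-148 family, of which 2 were higher in pancreas.
miR-148a-3p: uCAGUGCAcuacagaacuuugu
miR-152-3p: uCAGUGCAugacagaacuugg
miR-148b-3p: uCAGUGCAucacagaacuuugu
The fourth set holds epithelial miRNAs, which fall into 2 seeds.
miR-200b-3p: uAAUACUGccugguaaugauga
miR-200c-3p: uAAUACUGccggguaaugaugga
miR-200a-3p: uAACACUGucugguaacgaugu
miR-141-3p: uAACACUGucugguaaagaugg
The last set starts with a miRNA also counted in liver and intestine and a miRNA also counted in brain. It ends with a miRNA from an intron of a digestive enzyme cofactor gene (both arms) and the miRNA with the lowest fold change in pancreas.
miR-802-5p: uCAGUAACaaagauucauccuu
miR-219a-5p: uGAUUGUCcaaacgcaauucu
miR-6969-5p: cAGCAGAGuagggagcaaaaga
miR-6969-3p: uGUUGUUCccaucucugcag
miR-351-5p: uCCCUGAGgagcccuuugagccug

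By median total, pancreas was the shallowest of the organs compared. The shallowest pancreas library held 13795 counts, the deepest 964665 and the median one 134227, and 4 of 11 held fewer than 50000. The median total of the other organs lay between 990388 in liver and 12445057 in lung. Single libraries of other organs were shallow too, with 17201 counts in Brain 11 and 78905 in Liver 5. At 3 counts, the lowest level that could be told from 0 ran from 3.11 CPM (counts scaled to a common library size, without TMM factors) in the deepest pancreas library to 217 CPM in the shallowest. Of 1063 genes tested, 570 had a count in at least 6 of the 11 pancreas libraries, and 179 had none in any. P-values of the edgeR tests rest on an estimate of the spread that the libraries of all organs in a fit share. The reported fits hold no term for the animal.

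Against the mean of the 9 organs, 124 genes (11.7% of those tested) were higher in pancreas and 320 (30.1%) were lower, by edgeR's quasi-likelihood test (adjusted p below 0.05, and a change of 1 or more on the log2 scale in either direction). The log2 fold change is pancreas minus the average of the 9 organs' log2 levels, so that each organ weighs the same and a single high organ can stand above pancreas. Of the higher genes 107, and of the lower genes 214, had counts in at least 6 pancreas libraries. Within pool N467, against lung, liver, kidney and spleen of animals 1 to 10, 176 of 906 genes were higher (19.4%) and 266 were lower (29.4%). These comparisons share the pancreas libraries of the pool. In both, 111 genes were higher and 245 were lower.

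The balance of higher and lower calls rested on how the libraries were scaled. TMM factors from all tested genes, the scaling used for the values given here, were higher in pancreas than in the other organs by 0.96 on the log2 scale, and the median gene stood at a log2 fold change of -0.98. With TMM factors from well counted genes only, an alternative chosen after seeing the data, 186 genes were higher and 192 lower, and the median gene moved by 0.59. All 124 higher genes were called higher under each of the 5 scalings fitted, but only 161 of the 320 lower genes were called lower under each. No gene was called in opposite directions by any of these scalings. The other scalings fitted gave pancreas smaller factors, from 0.66 down to 0 on the log2 scale, and moved the median gene upward. That the higher calls held was therefore nearly fixed in advance and is no independent support. Within pool N467, a scaling named TMMwsp moved the median gene by -0.24, and 155 genes in place of 176 were higher.

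**Figure D1:**
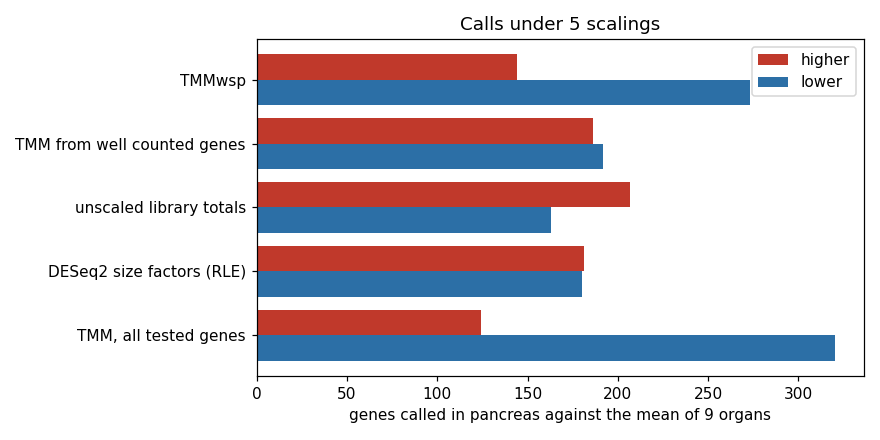
Genes called higher (red) and lower (blue) in pancreas against the mean of 9 organs, on the x axis, under the 5 scalings on the y axis. Lower calls run from 320 with TMM factors from all tested genes to 163 with unscaled totals, and higher calls from 124 to 207.

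Of the acinar miRNAs, Mir216a and Mir217 had the largest fold changes of the genes named, and Mir216b was higher than the average of the organs but was not called higher than each of them. Mir216a (chr11:28757012-28757083, plus strand, in an intron of the long non-coding RNA gene Gm12082) stood at 1617 CPM in the lowest, 5133 in the median and 10635 in the highest pancreas library. The highest of the other 119 libraries, Intestine 1, held 148 CPM, so the groups did not overlap. Its log2 fold change was 14.71 ± 0.64 (SE) against the 9 organs (edgeR adjusted p = 7.3e-45) and 16.61 ± 0.40 within the pool. Mir217 (chr11:28763728-28763835), 6716 bases from Mir216a, ran from 1179 through 3069 to 8967 CPM, with 190 CPM at most elsewhere. Mir217 was not counted in any of 13 liver libraries, at a pooled 34631168 counts, so that pancreas was at least 40160-fold higher than liver when 3 counts over the liver libraries are taken as the limit. Mir216b (chr11:28746191-28746276) ran from 60.4 through 1281 to 2188 CPM against 49.4 CPM at most elsewhere. It was 4.82 above intestine on the log2 scale (edgeR adjusted p = 0.139 for the test against each organ), and no pancreas library held fewer than 3 counts of it. All 3 tested acinar members were higher in both comparisons, beside 11.7% and 19.4% of all genes tested. Where an organ is nearly without counts, the size of a fitted fold change depends on the small count added by the fit.

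Outside pancreas, the acinar miRNAs were counted mostly in intestine and brain. Pooled over libraries, Mir216a stood at 32.4 CPM in intestine, 2.34 CPM in brain and 0.142 CPM in spleen, against 4513 CPM in pancreas. In intestine the counts were uneven: the median library held 0.15 CPM of Mir216a and the highest 148 CPM. Intestine 1, 5, 6, 9 and 10 carried these counts. Without those 5 libraries, 26 genes in place of 17 were higher in pancreas than in each organ. The libraries were picked for carrying these miRNAs, so the gain is no independent support. The whole fit moved as well: the median gene shifted by 0.32 on the log2 scale, with 162 genes higher and 257 lower. What the gain came from was not tested.

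Mir6969 followed the acinar miRNAs at a much lower level. The gene (chr17:28558441-28558501, minus strand) lies in an intron of Clps, which encodes colipase, the cofactor of pancreatic lipase. It ran from 30.2 through 83.0 to 177 CPM in the pancreas libraries, resting on 267 counts over all 11, with as few as 1 count in a library. The highest other library held 9.95 CPM. In 7 of the 9 organs no count was found, and the difference from lung was at least 6437-fold by the limit of 3 counts over the lung libraries. Its log2 fold change was 11.46 ± 1.07 (edgeR adjusted p = 1.8e-12).

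**Figure D2:**
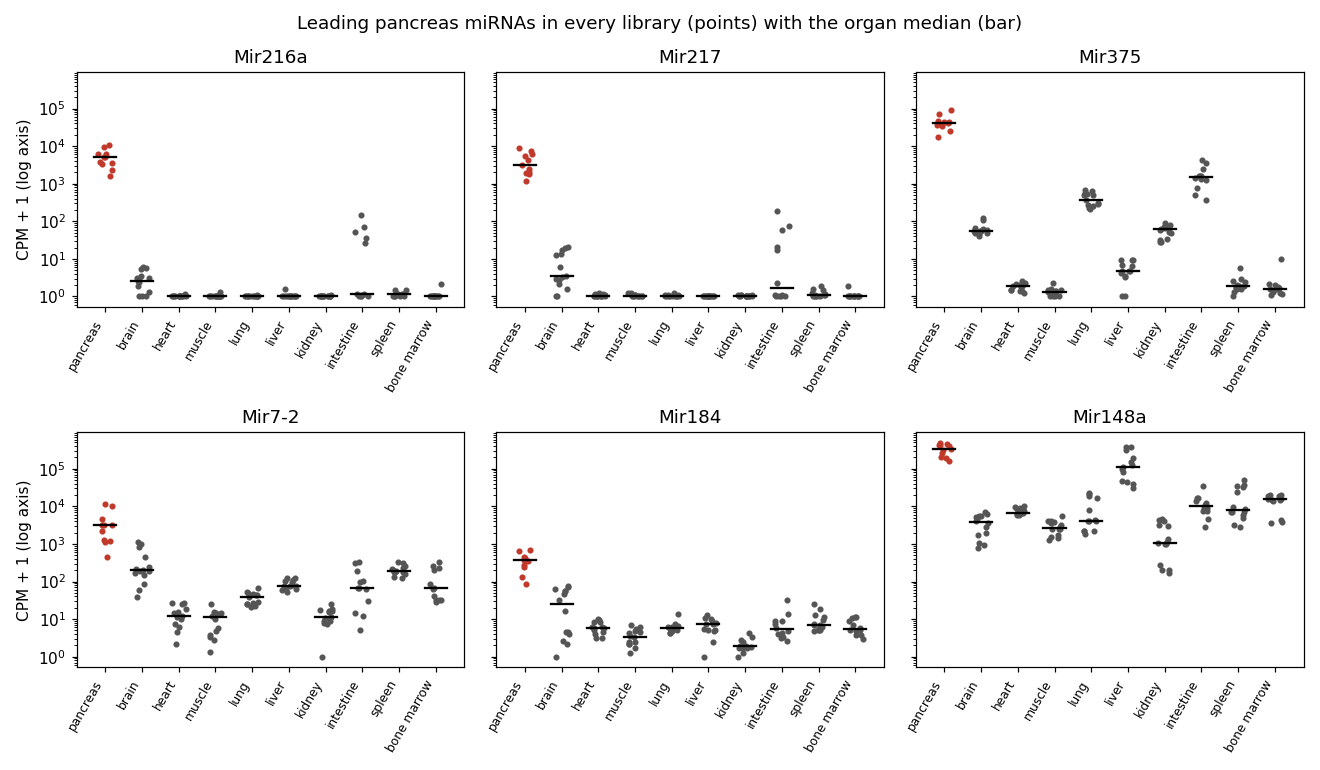
CPM plus 1 on a log axis of 6 miRNAs in every library (points, pancreas in red) of 10 organs, with the organ median as a bar. Pancreas stands alone for Mir216a, Mir217, Mir375 and Mir184, brain libraries reach the lowest pancreas libraries for Mir7-2, and liver reaches pancreas for Mir148a.

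All 5 islet miRNAs were higher in pancreas in both comparisons, beside 11.7% and 19.4% of all genes tested. Mir7-1 and Mir7-2, whose reads cannot be split, are counted separately among them. Mir375 (chr1:74900658-74900721), which restrains insulin secretion, ran from 17444 through 41590 to 92634 CPM. Every pancreas library lay above every other library, the highest of which was Intestine 1 with 4223 CPM. The log2 fold change was 10.43 ± 0.39 (edgeR adjusted p = 9.5e-52), and the nearest organ, intestine, was lower by 2.91. Lung followed, at a median of 357 CPM. Mir184 ran from 86.0 through 374 to 679 CPM and did not overlap with the other libraries, of which Brain 14 was the highest with 75.0 CPM. Mir7-2 ran from 438 through 3151 to 11459 CPM, and 4 other libraries lay above its lowest pancreas library. Mir7-1 gave nearly the same values, from 589 through 3043 to 11558 CPM. Mir7b ran from 226 through 997 to 3548 CPM, and brain came within 0.71 of pancreas on the log2 scale, so that Mir7b was not higher than each organ.

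The acinar miRNAs Mir216a and Mir217 and the islet miRNA Mir375 varied together between the pancreas libraries; other islet miRNAs were not part of this relation. The log2 level (TMM-scaled CPM plus 1) of Mir216a plus Mir217 followed that of Mir375 with Pearson's r = 0.87 (permutation p = 0.00035, adjusted over 3 relations p = 0.00105) and Spearman's rho = 0.74 (permutation p = 0.0129, adjusted p = 0.0386). Without the 2 libraries farthest from the median of the x axis, r was 0.83. Within the 9 libraries of pool N467, r was 0.90. These libraries divided by animal number. TMM-scaled Mir375 ran from 13890 to 21561 CPM in animals 1 to 5 and from 25935 to 49563 CPM in animals 6 to 9. Mir216a ran from 1282 to 2251 CPM and from 3945 to 5191 CPM, again without overlap. The permutation test treats all libraries as exchangeable, and the relation inside each set of animals was not tested. With unscaled CPM, r was 0.86 and the permutation p of rho, adjusted, was 0.0994. Against the library total, r was 0.31 for the acinar miRNAs and 0.32 for Mir375, with permutation p adjusted to 0.345 for both. Without the 2 libraries farthest from the median total, r was 0.67 (permutation p = 0.0519) and 0.55 (permutation p = 0.126). Levels within a library share 1 total and 1 scaling factor.

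The count of genes higher in pancreas than in each of the 9 organs was 17 (1.6% of those tested), where a gene had to pass the one-sided test against every organ and exceed the nearest organ by at least 1 on the log2 scale. All 17 were counted in all 11 pancreas libraries and were also higher within pool N467. They were Mir216a, Mir217, Mir6969, Mir375, Mir802, Mir219a-1, Mir184, Mir7-1, Mir7-2, Mir34a, Mir574, Mir676, Mir152, Gm22888, Mir1839.1, Mir27b and Mir345. All 17 held under each of the 5 scalings, of which the reported one gave pancreas the largest factor. Leaving out animal 6 ended the calls of Mir7-2 and Mir802, and leaving out animal 13 that of Mir27b. Without libraries under 50000 counts, Mir27b and Mir7-2 were lost. With miRNA genes only, Mir802 was lost. In pool N541 alone, Mir1839.1, Mir6969, Mir7-1, Mir7-2 and Mir802 were lost.

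Mir802 (chr16:93369720-93369816) ran from 998 through 1520 to 6505 CPM. The next organ was liver, where Liver 11 reached 779 CPM, and every pancreas library lay above it. Pooled over libraries, Mir802 stood at 347 CPM in liver and 309 CPM in intestine. Its log2 fold change was 9.74 ± 0.44 against the 9 organs and the difference from liver was 1.94. Mir219a-1 (chr17:34024983-34025092) ran from 349 through 980 to 9931 CPM against 339 CPM at most elsewhere, in Brain 10. Its 2 highest pancreas values came from animals 12 and 13, in pool N541. Mir219a-2 was counted as a gene of its own, and whether it shares reads with Mir219a-1 is not known. Mir34a, a target of the p53 tumour suppressor, ran from 946 through 2501 to 6307 CPM, and 1 other library, Brain 5 with 1009 CPM, lay above its lowest value.

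Mir574 (in an intron of Fam114a1) ran from 191 through 602 to 2102 CPM, and no other library reached it. Mir676 (in an intron of Eda) ran from 130 through 539 to 4494 CPM, with 12 other libraries above its lowest value. Mir345 ran from 167 through 454 to 1305 CPM and was higher than the 9 organs by 2.37 ± 0.20. Gm22888, a snoRNA gene in an intron of Ubap2, ran from 31.2 through 196 to 836 CPM, with 25 other libraries above its lowest value. Mir1839.1 is the second of 2 rows named Mir1839, whose reads may be shared; it ran from 528 through 872 to 1750 CPM. Mir27b was abundant, from 16787 through 37779 to 204639 CPM, with 4 other libraries above its lowest value. Its smallest difference, from lung, was 1.003, just past the threshold.

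**Figure D3:**
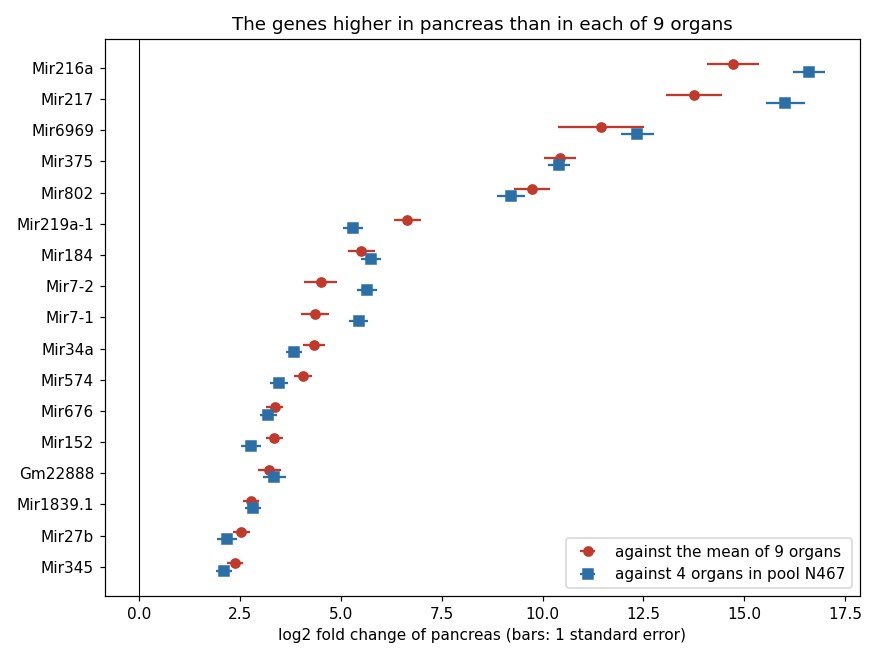
Log2 fold change of pancreas with 1 standard error, on the x axis, for the 17 genes higher than in each of 9 organs, against the 9 organs (red circles) and against 4 organs in pool N467 (blue squares). Every point lies above 2, from 2.37 for Mir345 to 14.71 for Mir216a against the 9 organs.

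Of the miR-148 family, whose 3 members share a seed, Mir148a and Mir152 were higher in both comparisons. Mir148a was the most abundant miRNA of pancreas, at 157892 CPM in the lowest, 327043 in the median and 490210 in the highest library. It was higher than the 9 organs by 3.75 ± 0.26 (edgeR adjusted p = 1.3e-26), but liver, at a median of 109214 CPM, differed by only 0.19 on the log2 scale, and 4 other libraries overlapped with pancreas. Mir152 (in an intron of Copz2) ran from 2137 through 3243 to 5393 CPM, above every other library. Mir148b (in an intron of Copz1) ran from 374 through 781 to 2755 CPM and was lower by 1.31 ± 0.39 against the 9 organs. That call was made under 1 of the 5 scalings and turned to 1.04 higher in pool N541 alone. Within pool N467, the log2 fold change of Mir148b was -2.39, called lower under each of the 5 scalings.

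The epithelial miRNAs of the miR-200 family, which keep epithelial cells from turning mesenchymal, were higher in pancreas for 5 of 5 members in both comparisons. Over all genes tested, 11.7% were higher against the 9 organs and 19.4% within the pool. Mir141 ran from 3089 through 16579 to 57096 CPM and Mir200c, 408 bases from it on chromosome 6, from 312 through 1509 to 4354 CPM. Intestine, lung and brain libraries overlapped with both. The 3 members of the Mir183 cluster, known from sensory and epithelial cells, were also higher in both. Mir182 ran from 8485 through 15623 to 24802 CPM, against a median of 3876 CPM in brain, where Brain 10 reached 407559 CPM. Mir96 ran from 0 through 484 to 1042 CPM, with a median of 48.6 CPM in brain. None of the 3 was called higher than each organ.

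Markers of other cell types are given beside the shares over all genes tested, of which 30.1% were lower against the 9 organs. For the intestinal miRNAs no test is given, since the library of animal 11 was left out for carrying them. Mir192 ran from 435 through 761 to 1949 CPM, against a median of 137228 CPM in liver. Mir215 was listed at 0 in 10 of the 11 libraries. The hepatocyte miRNA Mir122 stood at 6.92 CPM in the median and 74.5 CPM in the highest pancreas library and was called in neither direction. Of the lymphoid list 2 of 2 and of the haematopoietic list 2 of 2 members were lower in both comparisons. Against the 9 organs, Mir142 and Mir150 were lower under each of the 5 scalings, Mir223 under 4 and Mir155 under 1. Mir142 ran from 80.0 through 184 to 2298 CPM, and spleen had a mean of 21068 CPM. The endothelial Mir126a ran from 320 through 1362 to 4245 CPM and was lower by 2.22 ± 0.35.

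Of the stromal list, 4 of 4 members were lower against the 9 organs, but only Mir199a-1 was so under each of the 5 scalings. The smooth muscle miRNA Mir143 ran from 3203 through 17496 to 30373 CPM and was lower by 1.67 ± 0.25, under 3 of the 5 scalings. Over all genes tested, 30.1% were lower against the 9 organs and 29.4% within the pool. The Mir322 cluster had 5 of 7 tested members lower against the 9 organs and 7 of 7 lower within the pool. Of the 7, 3 had counts in at least 6 pancreas libraries. Mir351 of this cluster had the lowest fold change of the genes named: it ran from 0 through 9.61 to 62.4 CPM in pancreas, and lung had a mean of 2090 CPM. Its log2 fold change was -5.69 ± 0.45 (edgeR adjusted p = 1.0e-22). Mir322 itself ran from 0 through 26.3 to 96.4 CPM and was lower by 3.58 ± 0.43 on the log2 scale.

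**Figure D4:**
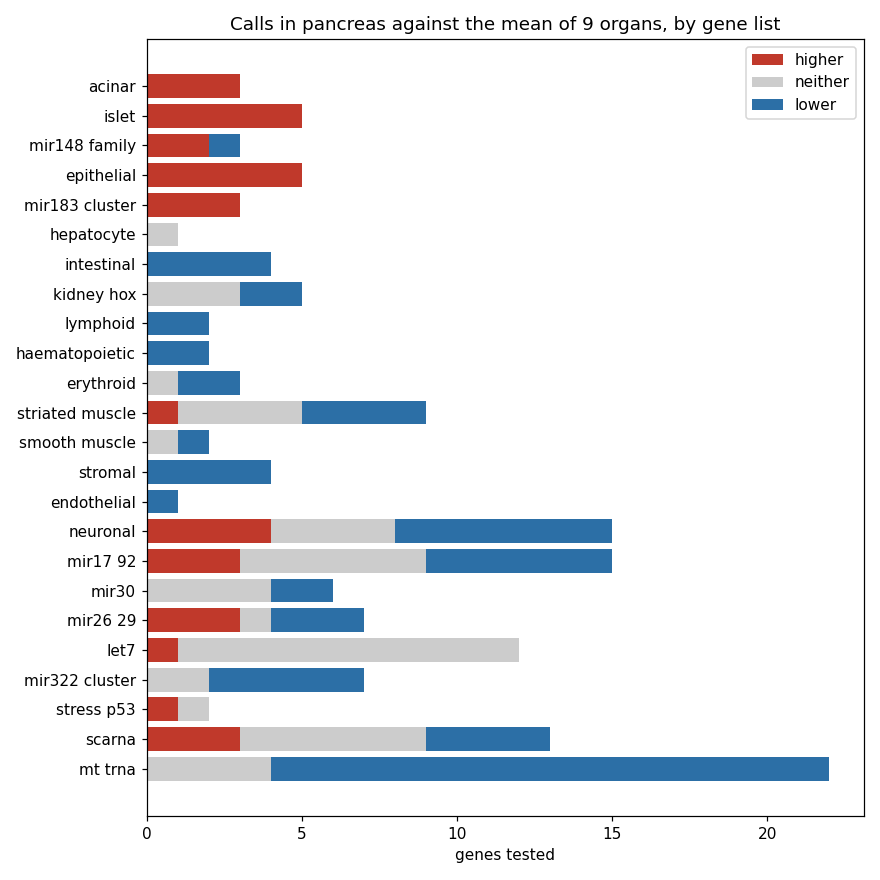
Number of genes tested in each gene list (y axis) that were higher (red), lower (blue) or neither (grey) in pancreas against the mean of 9 organs. The acinar, islet, epithelial and Mir183 cluster lists are entirely higher, and 18 of 22 mitochondrial tRNAs are lower. Over all genes tested, 11.7% were higher and 30.1% lower. The bar of the intestinal list is no test, since the library of animal 11 was left out for carrying these miRNAs.

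Muscle miRNAs changed direction with the organs compared. Mir133a-1 ran from 0 through 55.3 to 406 CPM in pancreas, with medians of 73232 CPM in muscle and 30505 CPM in heart, and of 3.50 CPM in kidney and 1.01 CPM in liver. Its log2 fold change was -1.65 ± 0.55 against the 9 organs and 2.34 ± 0.33 within pool N467. Mir133a-2, Mir1a-1 and Mir1a-2 did likewise. Their lower calls against the 9 organs were made under 2 of the 5 scalings, and their higher calls within the pool under all 5. The pool holds neither muscle nor heart. Lung, which is in the pool, stood at a median of 98.6 CPM of Mir133a-1 over its libraries, and pancreas minus lung was -2.20 on the log2 scale in the fit of all organs.

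Mitochondrial tRNAs were lower in pancreas than the 9 organs for 18 of 22 genes, and within the pool for 14 of 22, with a median log2 fold change of -2.42 and -1.64, beside -0.98 and -0.51 for all genes tested. In the pool, 1 of the 22 was higher. Over all genes tested, 30.1% were lower against the 9 organs and 29.4% within the pool. The abundant mt-Ts2 ran from 217 through 18354 to 27391 CPM, with a mean of 9641 CPM over the organs, and was called in neither direction. mt-Tm ran from 332 through 1152 to 1849 CPM, with a mean of 9405 CPM in heart. Of the nuclear tRNA rows, 7 were among the 10 lowest genes that were lower in both comparisons. They carry only row numbers, their log2 fold changes lay between -5.22 and -4.94, and whether they share reads is not known. One of them, tRNA_row_1007, ran from 0 through 151 to 2310 CPM and was lower by 5.22 ± 0.80.

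Of 15 neuronal miRNAs tested, 4 were higher and 7 lower against the 9 organs, beside 11.7% and 30.1% of all genes, and 6 had counts in at least 6 pancreas libraries. Mir138-1 ran from 0 through 43.3 to 78.0 CPM and Mir129-2 from 0 through 20.0 to 42.5 CPM, both called higher against the average of the organs (2.16 ± 0.38 and 2.55 ± 0.45) although brain, at means of 1144 and 1327 CPM, was far above pancreas. Mir124a-2 was not counted in any pancreas library, at 2862662 counts in all. By the limit of 3 counts over the group, it was at least 436.8-fold lower than the mean of the organs. That mean, 457.8 CPM, came almost wholly from brain, at 4116 CPM, so the bound does not hold for the other organs. Mir338 ran from 0 through 6.92 to 15.1 CPM and was lower by 4.13 ± 0.47.

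Of the Mir17-92 cluster and its relatives, which are known from proliferating cells, 3 of 15 were higher and 6 lower, beside 11.7% higher and 30.1% lower over all genes tested. Mir92-1 ran from 480 through 1266 to 4188 CPM and was lower by 2.77 ± 0.34, with a mean of 38527 CPM in bone marrow. Mir19b-1 of the same cluster ran from 558 through 2242 to 4137 CPM and was higher by 2.13 ± 0.22. Both calls held under each of the 5 scalings. Of 12 let-7 miRNAs, 1 was higher and none lower: Mirlet7i ran from 4050 through 8100 to 22037 CPM and was higher by 1.21 ± 0.23.

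Of the miRNAs encoded in the Hox clusters, Mir10a ran from 8626 through 11442 to 33952 CPM and was lower by 2.42 ± 0.44, with a mean of 292181 CPM in kidney. Mir10b, among the most abundant in pancreas, ran from 25305 through 43602 to 72528 CPM and was called in neither direction here, but higher under 3 of the 5 scalings. Mir30d ran from 718 through 1450 to 7993 CPM and was lower by 2.63 ± 0.37. It was 1 of 2 lower among 6 miR-30 members, near the 30.1% lower over all genes tested. Of the erythroid list, Mir144, under 2 of the 5 scalings, and Mir486 were lower and Mir451a was not called. Mir486 ran from 1761 through 6770 to 28021 CPM and was lower by 3.12 ± 0.45. The lower calls of Mir10a, Mir30d and Mir486 held under each of the 5 scalings.

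As a share of all counts, miRNA made up 82.2 ± 7.49% (SD, n = 11) of the pancreas libraries, and 75.9% on average in the same animals' other organs. Over all 11 animals, none of the 7 RNA classes differed at an adjusted p below 0.05 in the exact sign-flip permutation test over animals, two-sided; the smallest adjusted p was 0.116, for snRNA. The tRNA share was 5.40 ± 5.08%, lower than the mean of the other organs in 9 of 11 animals (exact permutation p = 0.0381, adjusted p = 0.133). Intestine had the highest mean tRNA share, 41.6%, and bone marrow followed with 18.5%. Brain (5.00%), heart (4.76%) and liver (4.15%) lay below pancreas and the remaining organs above it. The snoRNA share was 8.71 ± 6.57%, higher by 1.65 percentage points over all animals. Within pool N467, where only lung, liver, kidney and spleen were compared, it was lower by 3.11 points in 9 of 9 animals (exact permutation adjusted p = 0.0137). Animals and organs both changed there. Spleen, lung and liver had mean snoRNA shares of 18.6, 12.2 and 11.8% over all their libraries, and kidney 1.47%. In that pool, 3 other classes passed the exact permutation test: miscellaneous RNA, higher by 0.0667 points in 9 of 9 animals (adjusted p = 0.0137), small Cajal body RNA (scaRNA), lower in 7 of 9 (adjusted p = 0.0342), and snRNA, lower in 8 of 9 (adjusted p = 0.0273).

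The pancreas libraries of animals 12 and 13 stood apart from the 9 of pool N467. Of 567 genes with counts in at least 6 pancreas libraries, 58 (10.2%) differed between the pools in pancreas by more than in lung, liver, kidney and spleen, 29 in each direction. Without animal 12 the number was 33 and without animal 13 it was 27, each time leaving 1 library of that pool, which is assumed to vary like the other groups. Snord123, a snoRNA from an intron of Snhg18, held 1503 to 9333 CPM in pool N467 and 453 and 72.5 CPM in animals 12 and 13. Mir219a-1 held 349 to 2643 CPM in the pool against 4830 and 9931 CPM. The pools did not overlap for either gene in pancreas. Without animal 13 the difference for Snord123, -2.85 on the log2 scale, was -2.16 and was no longer called.

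**Figure D5:**
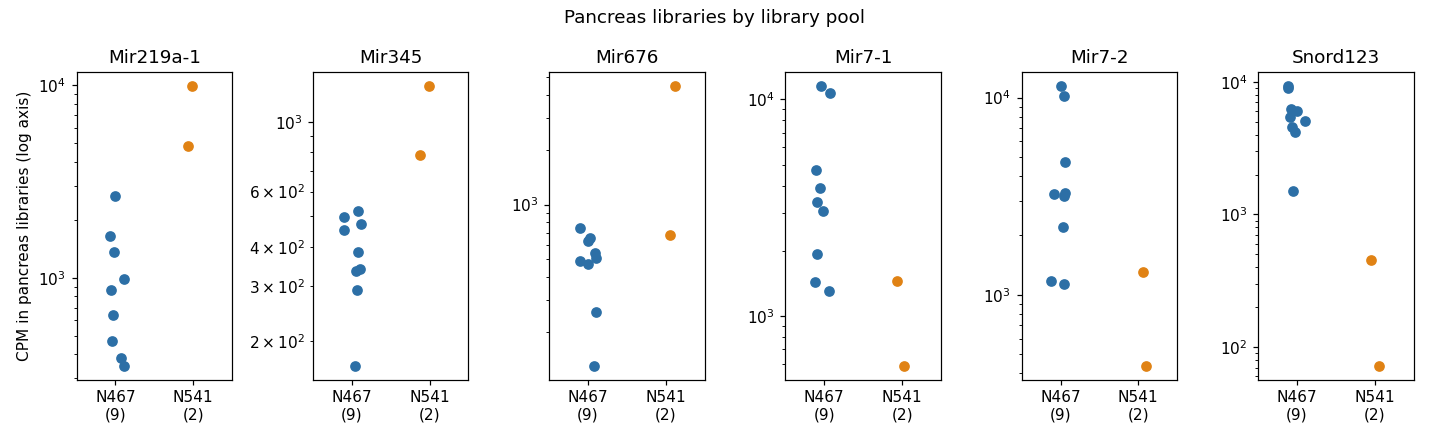
CPM on a log axis of 6 genes in the pancreas libraries of pool N467 (9 libraries, blue) and pool N541 (2 libraries, orange). Mir219a-1 is higher in both libraries of pool N541 than in any of pool N467, and Snord123 lower.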

How the data were processed

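The deposited table holds unnormalized counts per small RNA gene, made by the authors with STAR 2.5.1 and featureCounts on mm10/GRCm38, per the submitters' processing notes; the settings used, strand included, were not given in these sources. Of 134 columns, 131 were matched to samples by name and 3 testis columns were not used. Names and positions came from GENCODE M21. Counts were tested with edgeR 4.0.16 (limma 3.58.1, R 4.3.3): filterByExpr by tissue (minimum count 10), TMM scaling, terms for tissue and pool, contrast of pancreas against the equally weighted 9 organs, Benjamini-Hochberg adjustment over all genes tested. The pool N467 fit held tissue only. CPM values are counts scaled by the library total alone, without TMM factors; correlations used TMM-scaled CPM plus 1. DESeq2 1.42.0 served as an alternative; shares and correlations used scipy 1.17.1.

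The fits were tested on simulated data. Apart from genes changed in pancreas, every organ had the same mean levels there, with 1 fixed spread. Differences between organs were thus not imitated. TMM from all tested genes moved the simulated pancreas fold changes downward. Factors from genes averaging at least 217 CPM (3 counts in the shallowest pancreas library) did so less. Against the 9 organs, TMM from all tested genes recovered 8% of 2-fold increases and 70% of decreases to 0.5-fold. With factors from well counted genes, 26% and 36% were recovered. In all, 8 scalings were looked at on the real counts. The planned TMM from all tested genes was kept for the reported values, and the other is an alternative chosen after seeing the data.

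Genes were named by rule: with counts in at least 6 pancreas libraries, the 10 largest higher and 10 lowest lower in both comparisons, all above each organ, list members, the 5 most abundant, and those called in opposite directions. The members and lists were chosen with earlier results of these data known. Replicate numbers were taken as animals. Deviations of pancreas and another organ had a mean correlation of 0.02 in the same animal (35 pairs) and -0.002 in different animals. Snord123 and Mir215 were named after their values were seen.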

Additional observations from a re-analysis of the deposited data

Results flagged for a closer look

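For 5 of 30 leading genes, the difference between pools N541 and N467 in pancreas departed from that in lung, liver, kidney and spleen. The test was an interaction contrast in edgeR with adjusted p below 0.05. By the same contrast, 58 of all 567 genes tested (10.2%) departed, so the count says little about the leading genes. Reads of Mir7-1 and Mir7-2 cannot be split. The departure was 3.66 on the log2 scale for Mir219a-1, 1.70 for Mir345 and 1.89 for Mir676, higher in pool N541, and -1.99 for Mir7-2 and -1.91 for Mir7-1. Only Mir219a-1 was called both without animal 12 and without animal 13 (3.91 and 3.37). Pool N541 holds 2 pancreas libraries, both male, so pool and sex cannot be told apart. None of the 30 genes had a library apart from the other 8 of pool N467 by Dixon's 95% value.

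The pancreas library of animal 11, which entered no comparison, held 81716 CPM of Mir215 and 46611 CPM of Mir192 in 10255 counts, whereas Mir215 reached 1.60 CPM in the other pancreas libraries.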

How the results depend on the processing

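Genes higher against 9 organs numbered 124, and 207 with unscaled totals, 383 by DESeq2's Wald test and 72 in pool N541 alone. Lower genes numbered 320, and 180 with DESeq2 size factors, 163 unscaled, 177 by the Wald test, 86 in pool N541 and 192 with TMM from well counted genes. Genes above each organ numbered 17, and 27 with DESeq2 size factors and 28 by the Wald test. They numbered 26 without the 5 intestine libraries picked for carrying acinar miRNAs. Within pool N467, 176 higher genes became 278 by the Wald test, and 266 lower genes became 145 unscaled and 160 by the Wald test. Other fits tested fewer genes: with miRNA genes only, 68 were higher and 175 lower against 9 organs, beside 74 and 142 miRNA genes in the reported fit, and in the pool 82 and 131, beside 92 and 121. Among genes with counts in at least 6 libraries, 203 were lower, beside 214. The cause was not tested. Leaving out 1 pancreas library gave 125 to 148 higher, 262 to 309 lower and 15 to 22 above each, and within the pool 159 to 176 higher and 247 to 290 lower. The pool difference gave 27 to 33.

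With a replicate block, 151 genes were higher, 303 lower and 21 above each, and within the pool 177 and 263; Mir27b was no longer above each organ. The share of calls that were higher moved from 27.9% to 50.1% with DESeq2 size factors, 55.9% unscaled and 49.2% with TMM from well counted genes. Of 8 scalings looked at, the factor of pancreas against the organs ran from -0.68 to 0.96 on the log2 scale. Mir148b reversed to 1.04 in pool N541. In pool N467 alone, the shares were compared with lung, liver, kidney and spleen only. There the snoRNA share reversed to -3.11 points and the mitochondrial tRNA share to 0.40. The scaRNA share reversed to -0.33 and the miscellaneous RNA share to 0.0667 points. With unscaled CPM, r against depth reversed to -0.18 for acinar and -0.35 for islet miRNAs. Of 17 named genes not called against 9 organs, 14 changed sign under some alternative. Without the 4 libraries under 50000 counts, 120 genes were higher and 291 lower.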
